A study of Mus musculus with 9 samples.

Results

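The genes described here are 39 adipocyte genes for lipid storage and hormones, chosen by name as a module of fat cell function, among 17742 genes named on the arrays. Every probe whose symbol in the platform annotation equals a member was taken (the annotation writes them in capitals, such as ADIPOQ, LEP, RETN and PLIN1), which gave 42 probes for 35 members. Expression of Adrb3, Pde3b, Acacb and Cpt1b is not analysed here. The 9 one-colour arrays, 3 in each of 3 groups, carried Cy5-labelled RNA from the shaved back skin of female BALB/c mice. The vanillin group received topical IMQ (imiquimod, a toll-like receptor 7 agonist used to model psoriasis) and 100 mg/kg of vanillin by mouth, the IMQ group received topical IMQ, and the mock group received Vaseline cream, each daily for 7 days. No group received vanillin without IMQ. Separate mice are not stated for the arrays of a group. The p-values cover the spread between arrays alone, and that spread may be technical.

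White adipocytes lie in the layer of fat under the dermis and hold triglyceride in a single large lipid droplet. They take up fatty acids through Cd36, bind them with Fabp4, esterify them through the acyltransferases, and coat the droplet with perilipins. When fuel is needed, the lipases Pnpla2, Lipe and Mgll release fatty acids one step after another, and Pparg and Cebpa are the transcription factors that maintain the program. The cells also secrete the hormones adiponectin, leptin and, in mice, resistin. Several of these genes are also used by skeletal muscle, sebaceous glands, endothelium or macrophages.

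Values are log2 intensities, and differences are log2 differences with the standard error of the limma fit. A gene was called at a Benjamini-Hochberg adjusted p under 0.05 over all 26423 probes. The array medians ran from 629 to 631 in linear intensity, and arrays of a group correlated at 0.984 to 0.996 over all probes. The tissue is labelled skin while the extraction text names muscle. Keratinocyte markers lay between percentiles 29.0 and 100.0 of mean probe intensity and skeletal muscle markers between 68.4 and 99.3. Several defining adipocyte genes had bright probes: Adipoq (percentile 97.0), Cfd (99.4), Fabp4 (99.5), Cidec (96.5) and Plin1 (85.9). Those of Lep (65.7) and Retn (39.4) were dimmer. The probes of Pparg (2.10), Lpl (13.4), Ucp1 (17.5) and Ppargc1a (24.3) were in the dimmest 25%.

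In IMQ skin the secreted adipocyte products and much of the storage machinery were lower than in mock skin. Adiponectin was 2.92-fold lower, Angptl4 4.30-fold, resistin 2.39-fold, perilipin 1 2.34-fold and leptin 2.26-fold. Other members rose, and the lipase gene Mgll had the largest rise, at 3.28-fold. Of the 35 measured members, 17 were called lower and 6 higher in IMQ against mock, and 12 were not called. Over all probes 29.6% were called lower, 24% higher and 53.6% in either direction, so the 65.7% of members called stood not far above the share called among all probes. The members' median difference was -0.29, against -0.04 over all probes. That median was -0.57 with the dimmest 25% of probes left out and -0.55 without mock replicate 2. The arrays of both groups did not overlap for 25 members (68% of all probes).

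With vanillin added to IMQ, 17 members were called higher and 3 lower than with IMQ alone, and 15 were not called. Over all probes 24.3% were called higher, 17% lower and 41.2% in either direction. Leptin was 1.78-fold higher, Cd36 1.81-fold on its brightest probe, adiponectin 1.75-fold and perilipin 1 1.58-fold. A dimmer Cd36 probe was not called (0.38, adjusted p = 0.0665). The largest difference of any member was a fall, that of Mgll, which was 2.16-fold lower. The members' median difference was 0.29, against 0.03 over all probes, and the arrays did not overlap for 25 members (58.5% of all probes). Without IMQ replicate 1, and likewise without IMQ replicate 3, only 1 member was called lower. Against mock, the vanillin group had 10 members called lower, 6 higher and 19 not called (14.7%, 11.9% and 26.7% of all probes lower, higher and in either direction), with 23 members not overlapping (37.8% of all probes). When the IMQ arrays were kept out of that fit, 6 members were called lower. The comparisons share arrays (the IMQ arrays serve in 2 of them), so the comparisons are not independent of each other. In a bulk sample, fewer adipocytes and less RNA per adipocyte cannot be told apart.

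**Figure D1:**
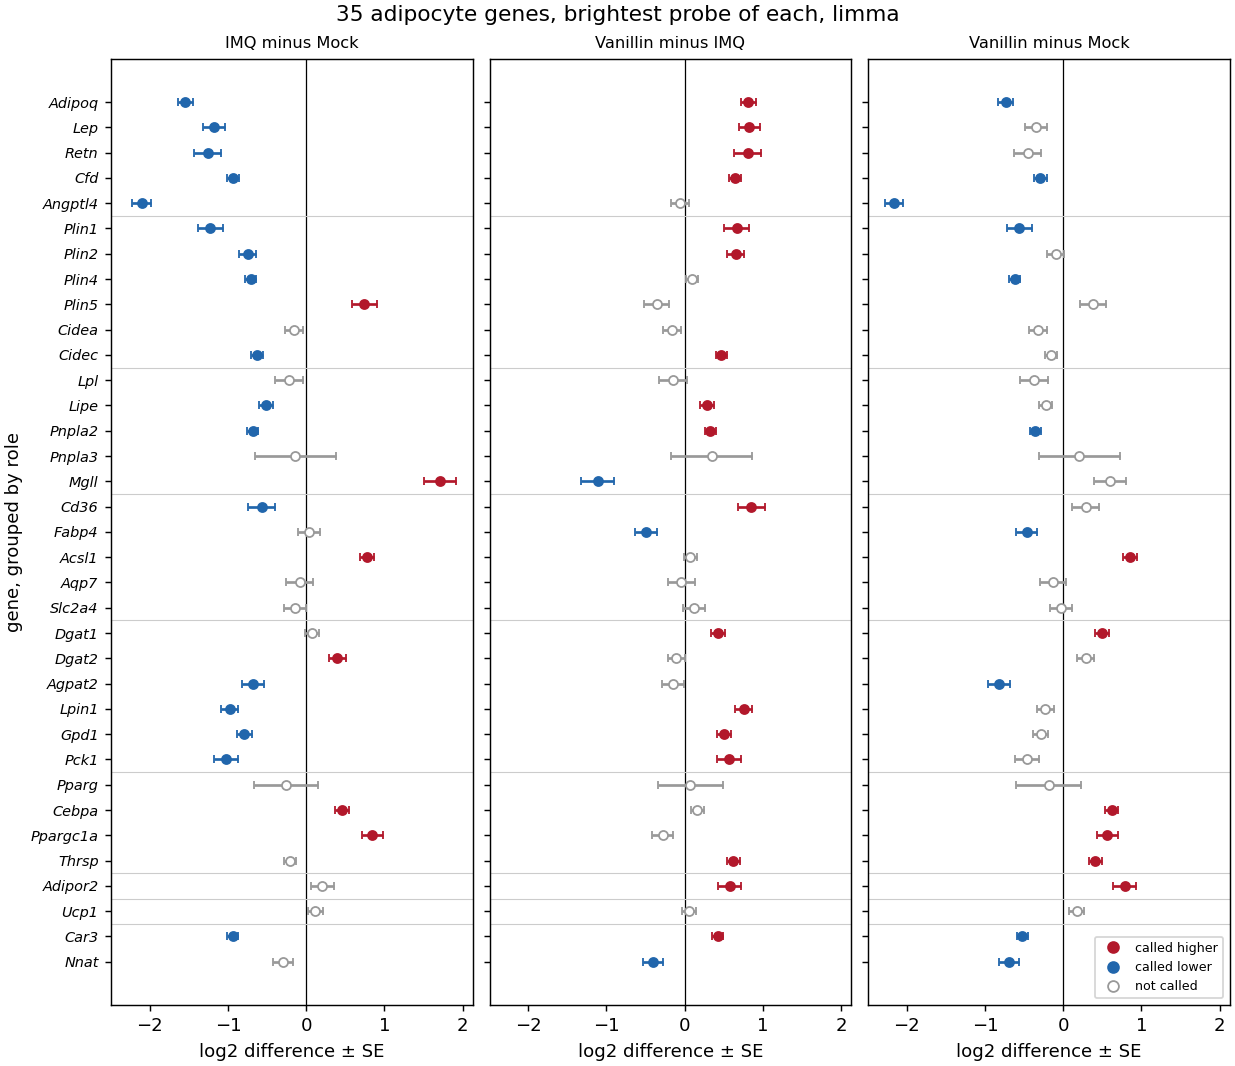
Log2 differences ± SE (x axis) of the 35 measured adipocyte genes (rows, grouped by role) for IMQ minus mock, vanillin minus IMQ and vanillin minus mock, 3 arrays a group. Red dots were called higher, blue dots lower and open dots not called; all 5 secreted products were called lower in IMQ skin, while Mgll has the largest rise, at 1.71.

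The 5 secreted products were all called lower in IMQ against mock (29.6% of all probes), and 4 were called higher with vanillin against IMQ (24.3% of all probes). Adipoq, which encodes adiponectin, a hormone that raises insulin sensitivity, read 15.00, 14.79 and 14.85 on the vanillin arrays, 14.05, 14.12 and 14.03 on the IMQ arrays and 15.67, 15.69 and 15.48 on the mock arrays. The groups did not overlap, with the vanillin arrays between the other two. The difference was -1.55 ± 0.10 (SE, adjusted p = 7.96e-06) for IMQ against mock, 0.81 ± 0.10 (SE, adjusted p = 0.00106) for vanillin against IMQ and -0.74 ± 0.10 (SE, adjusted p = 0.000620) for vanillin against mock. Lep encodes leptin, the satiety hormone released in proportion to fat mass. It read 10.93, 11.00 and 10.68 on the vanillin arrays, 10.00, 10.20 and 9.92 on the IMQ arrays and 11.44, 11.15 and 11.07 on the mock arrays, again in 3 groups that did not overlap. Its difference was -1.18 ± 0.14 (SE, adjusted p = 0.000158) for IMQ against mock and 0.83 ± 0.14 (SE, adjusted p = 0.00289) for vanillin against IMQ, and it was not called for vanillin against mock, at -0.35 (adjusted p = 0.0952).

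Retn, the gene of resistin, a hormone that fat cells make in mice, read 8.59, 8.65 and 8.42 on the vanillin arrays, 7.71, 7.97 and 7.56 on the IMQ arrays and 9.37, 8.87 and 8.78 on the mock arrays. The IMQ arrays were lowest, and no array of one group reached those of another. The difference was -1.26 ± 0.17 (SE, adjusted p = 0.000378) for IMQ against mock, 0.81 ± 0.17 (SE, adjusted p = 0.00729) for vanillin against IMQ and -0.45 (adjusted p = 0.0878) for vanillin against mock, which was not called. Cfd, the gene of adipsin (complement factor D), averaged 16.41 ± 0.08 in vanillin, 15.77 ± 0.00461 in IMQ and 16.70 ± 0.07 in mock skin (SD, n = 3 arrays each). It was lower in IMQ against mock, at -0.94 (adjusted p = 3.76e-05) in limma, and higher by 0.64 (adjusted p = 0.00133) with vanillin against IMQ. For vanillin against mock it was lower, at -0.29 (adjusted p = 0.0284), a call lost without mock replicate 2, any one IMQ replicate or vanillin replicate 1 or 3 (adjusted p up to 0.0843), and when the IMQ arrays were kept out of the fit (0.118).

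Angptl4, a secreted inhibitor of lipoprotein lipase, had another order. It read 12.96, 12.78 and 13.00 on the vanillin arrays, 12.99, 12.94 and 12.99 on the IMQ arrays and 14.83, 15.19 and 15.21 on the mock arrays. The vanillin and IMQ arrays overlapped, and all of them lay below every mock array. Its difference was -2.10 ± 0.12 (SE, adjusted p = 4.75e-06) for IMQ against mock, the largest of any member, and -2.16 ± 0.12 (SE, adjusted p = 5.07e-06) for vanillin against mock. For vanillin against IMQ it was -0.06 ± 0.12 (SE, adjusted p = 0.711).

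**Figure D2:**
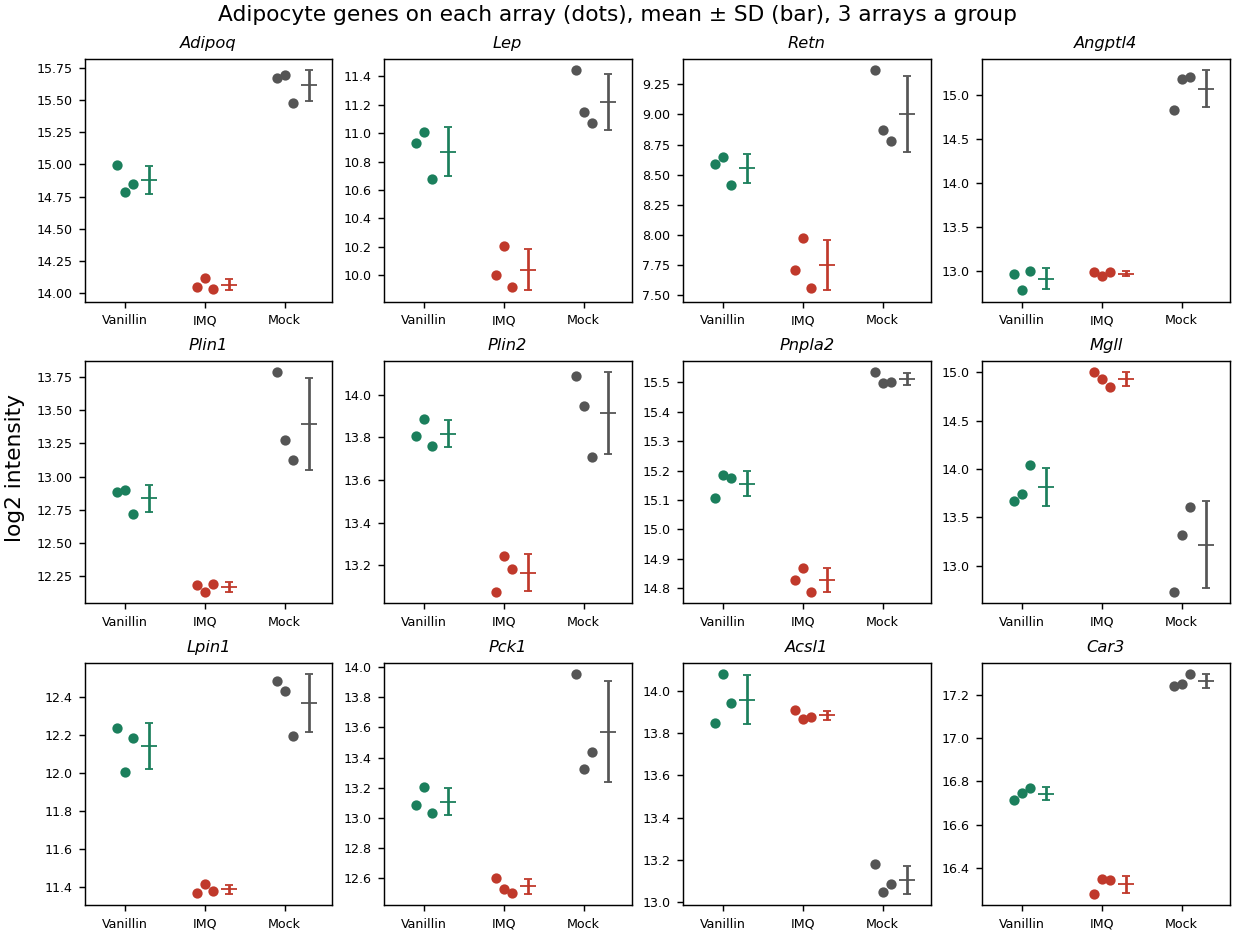
Log2 intensity (y axis) of 12 adipocyte genes on each vanillin, IMQ and mock array (dots), with the mean ± SD of 3 arrays beside them. Adipoq, Lep, Retn, Plin1, Pnpla2, Pck1 and Car3 show the vanillin arrays between the IMQ and the mock arrays without overlap, Angptl4 and Acsl1 show vanillin beside IMQ, and Mgll is highest on the IMQ arrays.

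Of the 6 genes of lipid droplet proteins, 4 were called lower in IMQ against mock, 1 higher and 1 was not called (29.6% of all probes lower, 24% higher). Plin1, the perilipin that gates access of lipases to the droplet of adipocytes, read 12.89, 12.90 and 12.72 on the vanillin arrays, 12.19, 12.13 and 12.20 on the IMQ arrays and 13.79, 13.28 and 13.12 on the mock arrays. No groups overlapped, and the mock arrays were highest. Its difference was -1.22 ± 0.16 (SE, adjusted p = 0.000284) for IMQ against mock and 0.66 ± 0.16 (SE, adjusted p = 0.0114) for vanillin against IMQ. Against mock the vanillin group was lower, at -0.56 (adjusted p = 0.0296), a call lost without IMQ replicate 1 or 3 or any one vanillin replicate (adjusted p up to 0.0732), and when the IMQ arrays were kept out of the fit (0.0842). Plin2, a perilipin of small droplets in many cell types, read 13.81, 13.88 and 13.76 on the vanillin arrays, 13.07, 13.24 and 13.18 on the IMQ arrays and 14.09, 13.95 and 13.71 on the mock arrays. Vanillin and mock arrays overlapped, and all lay above the IMQ arrays. The difference was -0.75 ± 0.11 (SE, adjusted p = 0.000591) for IMQ against mock, 0.65 ± 0.11 (SE, adjusted p = 0.00326) for vanillin against IMQ and -0.10 (adjusted p = 0.564) for vanillin against mock, which was not called.

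Cidec, which drives transfer of lipid between droplets and so their fusion in white fat cells, was lower in IMQ against mock, at -0.63 (adjusted p = 0.000167), and higher by 0.47 (adjusted p = 0.00245) with vanillin against IMQ, and -0.16 (adjusted p = 0.156) for vanillin against mock was not called. Plin4, a perilipin of adipocyte droplets, was lower in IMQ against mock, at -0.71 (adjusted p = 9.82e-05), and in vanillin against mock, at -0.62 (adjusted p = 0.000420), with 0.09 (adjusted p = 0.366) for vanillin against IMQ, not called. Plin5, a perilipin of tissues that burn fat, moved the other way. It read 8.36, 8.44 and 8.11 on the vanillin arrays, 8.60, 8.73 and 8.66 on the IMQ arrays and 8.04, 7.56 and 8.16 on the mock arrays. All IMQ arrays were above all mock arrays, with vanillin arrays overlapping the mock ones. Its difference was 0.74 ± 0.16 (SE, adjusted p = 0.00436) for IMQ against mock and -0.36 ± 0.16 (SE, adjusted p = 0.103) for vanillin against IMQ, with 0.38 (adjusted p = 0.119) for vanillin against mock, and neither of these was called. Cidea, a droplet protein of brown fat and of sebaceous glands, differed by -0.15 ± 0.12 between IMQ and mock and by -0.17 ± 0.12 between vanillin and IMQ, with -0.32 (adjusted p = 0.0770) for vanillin against mock, and no comparison was called.

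The promoters of Lep, Plin1 and Cidec are shown because these members, called lower in IMQ against mock and higher with vanillin against IMQ, hold the C/EBP motif TTGCNNAA. C/EBP factors, among them the product of the member Cebpa, bind such sites. RefSeq promoter windows of GRCm38.p6 were matched for 27 of the 39 members. The motif (searched on both strands) in the 250 bases before each start was found in 4 of the 35 member windows, against 9.56% of all 32851 windows, a share near the background. The other gene with a match was Pparg, which was not called. The motif TATAAA (both strands) was found in 3 of the 35 member windows, those of Acacb, Cebpa and Pparg, against 12.4% of all. A direct repeat of AGGNCA with 1 base between the copies, the element of PPAR with its partner RXR (both strands), was in 0 member windows and in 0.338% of all. Each sequence runs 5′ to 3′ on the strand of its gene and ends at the base before the start, and capitals mark the C/EBP motif. The Lep stretch is chr6:29059971-29060220 on the plus strand, Plin1 is chr7:79732777-79733026 on the minus strand, and Cidec is chr6:113434765-113435014 on the minus strand.
Lep: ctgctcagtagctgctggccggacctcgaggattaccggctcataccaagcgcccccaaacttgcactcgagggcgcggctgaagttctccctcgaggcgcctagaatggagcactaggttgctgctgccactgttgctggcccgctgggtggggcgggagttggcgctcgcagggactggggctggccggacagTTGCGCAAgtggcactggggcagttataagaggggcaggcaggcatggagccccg
Plin1: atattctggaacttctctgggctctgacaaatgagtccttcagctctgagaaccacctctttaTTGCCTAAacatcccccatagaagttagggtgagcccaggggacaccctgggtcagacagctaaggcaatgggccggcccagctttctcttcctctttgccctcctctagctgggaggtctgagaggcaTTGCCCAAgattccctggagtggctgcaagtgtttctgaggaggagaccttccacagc
Cidec: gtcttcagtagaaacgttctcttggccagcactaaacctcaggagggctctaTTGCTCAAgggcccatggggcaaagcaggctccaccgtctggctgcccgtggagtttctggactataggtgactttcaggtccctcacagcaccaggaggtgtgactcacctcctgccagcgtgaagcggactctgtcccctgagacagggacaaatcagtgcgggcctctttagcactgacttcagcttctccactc
The match of Lep, 55 to 48 bases before the start, is a perfect palindrome, so both strands read the same letters. Plin1 has matches 187 to 180 and 58 to 51 bases before its start, and Cidec has one 198 to 191 bases before its start. A match describes the letters only, and binding was not measured.

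Among the 5 lipases, 2 were called lower in IMQ against mock, 1 higher and 2 were not called (29.6% of all probes lower, 24% higher). Pnpla2 (adipose triglyceride lipase, the first step of fat breakdown) read 15.11, 15.19 and 15.17 on the vanillin arrays, 14.83, 14.87 and 14.79 on the IMQ arrays and 15.54, 15.50 and 15.50 on the mock arrays. The groups lay apart, with IMQ lowest and mock highest. Its difference was -0.68 ± 0.07 (SE, adjusted p = 0.000110) for IMQ against mock, 0.33 ± 0.07 (SE, adjusted p = 0.00905) for vanillin against IMQ and -0.36 ± 0.07 (SE, adjusted p = 0.00734) for vanillin against mock. A dimmer probe of Pnpla2 was not called, at -0.17 (adjusted p = 0.526) for IMQ against mock or 0.55 (adjusted p = 0.0725) for vanillin against IMQ. For vanillin against mock it had the opposite sign to the brighter probe, at 0.37 (adjusted p = 0.250), not called, and the mean of both probes gave 0.0080 for vanillin against mock. Lipe (hormone-sensitive lipase, the second step) read 9.22, 9.34 and 9.14 on the vanillin arrays, 8.93, 8.92 and 8.98 on the IMQ arrays and 9.55, 9.39 and 9.43 on the mock arrays. All IMQ arrays were below both other groups. The difference was -0.51 ± 0.09 (SE, adjusted p = 0.00122) for IMQ against mock and 0.29 ± 0.09 (SE, adjusted p = 0.0284) for vanillin against IMQ, a call lost without any one IMQ replicate or vanillin replicate 1 or 2 (adjusted p up to 0.0931). Lipe was not called for vanillin against mock, at -0.23 (adjusted p = 0.0939).

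Mgll, the monoglyceride lipase of the last step, which skeletal muscle and other tissues also use, went against the other lipases. It read 13.67, 13.74 and 14.04 on the vanillin arrays, 15.00, 14.93 and 14.85 on the IMQ arrays and 12.73, 13.32 and 13.60 on the mock arrays. Each IMQ array was above every other array, and the lowest vanillin array was just above the highest mock array. The difference was 1.71 ± 0.21 (SE, adjusted p = 0.000192) for IMQ against mock, a 3.28-fold rise, and -1.11 ± 0.21 (SE, adjusted p = 0.00426) for vanillin against IMQ, and 0.60 (adjusted p = 0.0630) for vanillin against mock, which was not called. It was called higher for vanillin against mock under 5 of 20 alternatives, among them the fit without mock replicate 3, at 0.79 (adjusted p = 0.0221). Lpl, the lipase on capillary walls that frees fatty acids from lipoproteins, had a dim probe with 6.21 ± 0.39 in vanillin, 6.36 ± 0.06 in IMQ and 6.58 ± 0.16 in mock skin (SD, n = 3 arrays each), and no comparison was called. Without vanillin replicate 3, Lpl was called lower in vanillin against IMQ, at -0.37 (adjusted p = 0.0283), and against mock, at -0.59 (adjusted p = 0.00684). Array weights also called both lower.

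Pnpla3 (adiponutrin, a droplet protein related to Pnpla2) had 1 array far from the rest. Its brightest probe read 11.45, 11.50 and 11.58 on the vanillin arrays, 11.17, 11.19 and 11.13 on the IMQ arrays and 12.05, 9.78 and 12.07 on the mock arrays. Mock replicate 2 stood more than 2 log2 units below the other mock arrays, whereas the arrays within the vanillin group and within the IMQ group lay close together. Nothing was called on this probe, with -0.14 ± 0.52 (SE, adjusted p = 0.840) for IMQ against mock. Without mock replicate 2 the probe was called lower in IMQ against mock, at -0.90, and in vanillin against mock, at -0.55 (adjusted p = 0.000272 and 0.00505). The dimmer probe read 8.68, 8.79 and 8.44 on the vanillin arrays, 8.21, 8.42 and 8.22 on the IMQ arrays and 9.07, 9.04 and 9.06 on the mock arrays. There the mock arrays were tight and highest, and the difference was -0.77 ± 0.11 (SE, adjusted p = 0.000469) for IMQ against mock and 0.36 ± 0.11 (SE, adjusted p = 0.0308) for vanillin against IMQ. For vanillin against mock that probe was called lower, at -0.42 (adjusted p = 0.0220).

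Genes for uptake of fatty acids, glycerol and glucose moved in no common direction. In IMQ against mock 1 of 5 was called lower, 1 higher and 3 were not called (29.6% of all probes lower, 24% higher). Cd36, a fatty acid carrier of adipocytes, muscle, macrophages and endothelium, read 10.45, 10.38 and 10.78 on the vanillin arrays, 9.40, 10.02 and 9.64 on the IMQ arrays and 10.39, 10.11 and 10.25 on the mock arrays. The IMQ arrays were lowest, and vanillin and mock arrays overlapped. The difference was -0.57 ± 0.17 (SE, adjusted p = 0.0217) for IMQ against mock and 0.85 ± 0.17 (SE, adjusted p = 0.00601) for vanillin against IMQ. The first of these calls was lost without mock replicate 1 or 3 or IMQ replicate 1 or 3 (adjusted p up to 0.0811). This probe was not called for vanillin against mock, at 0.29 (adjusted p = 0.269). The dimmer Cd36 probe read -1.02 (adjusted p = 0.000515) for IMQ against mock, 0.38 (adjusted p = 0.0665) for vanillin against IMQ, not called, and -0.64 (adjusted p = 0.0122) for vanillin against mock.

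Fabp4, the fatty acid-binding protein of adipocytes, macrophages and capillaries, read 16.10, 16.20 and 16.43 on the vanillin arrays, 16.76, 16.71 and 16.76 on the IMQ arrays and 16.42, 16.85 and 16.86 on the mock arrays. IMQ and mock arrays overlapped, and IMQ against mock was not called at 0.03 ± 0.14 (SE, adjusted p = 0.862). The difference was -0.50 ± 0.14 (SE, adjusted p = 0.0206) for vanillin against IMQ, a call lost without IMQ replicate 1 or 3 or vanillin replicate 1 or 2 (adjusted p up to 0.0695). The difference of -0.47 ± 0.14 (SE, adjusted p = 0.0361) for vanillin against mock held without mock replicate 1 or vanillin replicate 3 and was lost when any other single array was left out (adjusted p up to 0.116). Its probe is among the brightest on the arrays, and saturation could not be read from these values. Acsl1, which activates fatty acids by joining them to coenzyme A, read 13.85, 14.08 and 13.94 on the vanillin arrays, 13.91, 13.87 and 13.88 on the IMQ arrays and 13.18, 13.05 and 13.09 on the mock arrays. Vanillin and IMQ arrays overlapped, and all were above every mock array. Its difference was 0.78 ± 0.09 (SE, adjusted p = 0.000139) for IMQ against mock, 0.85 ± 0.09 (SE, adjusted p = 0.000172) for vanillin against mock and 0.07 (adjusted p = 0.524) for vanillin against IMQ, which was not called. Slc2a4, the insulin-responsive glucose carrier of fat and muscle, differed by -0.15 ± 0.14 between IMQ and mock and by 0.12 ± 0.14 between vanillin and IMQ, with -0.03 (adjusted p = 0.896) for vanillin against mock, and no comparison was called.

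Aqp7, the channel through which glycerol leaves adipocytes, depended on its probe. The brightest of 3 probes averaged 10.27 ± 0.38 in vanillin, 10.31 ± 0.09 in IMQ and 10.39 ± 0.09 in mock skin (SD, n = 3 arrays each), with no comparison called. The second probe read 8.95, 8.81 and 8.69 on the vanillin arrays, 7.93, 7.95 and 7.79 on the IMQ arrays and 9.63, 9.37 and 9.35 on the mock arrays. The third read 8.87, 8.70 and 8.62 on the vanillin arrays, 7.71, 7.82 and 7.58 on the IMQ arrays and 9.66, 9.25 and 9.23 on the mock arrays. On both, no groups overlapped, with IMQ lowest and mock highest. Their differences were -1.56 ± 0.11 (SE, adjusted p = 1.49e-05) and -1.68 ± 0.14 (SE, adjusted p = 2.61e-05) for IMQ against mock, and 0.93 ± 0.11 (SE, adjusted p = 0.00115) and 1.03 ± 0.14 (SE, adjusted p = 0.00152) for vanillin against IMQ. Both were also called lower for vanillin against mock, at -0.63 (adjusted p = 0.00320) and -0.65 (adjusted p = 0.00779). The mean over the probes was called for all 3 comparisons. It was -1.11 (adjusted p = 2.91e-05) for IMQ against mock and -0.47 (adjusted p = 0.00502) for vanillin against mock. For vanillin against IMQ it was 0.64 (adjusted p = 0.00186), where the brightest probe read -0.04. The transcripts that each probe detects are not known from the files.

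**Figure D3:**
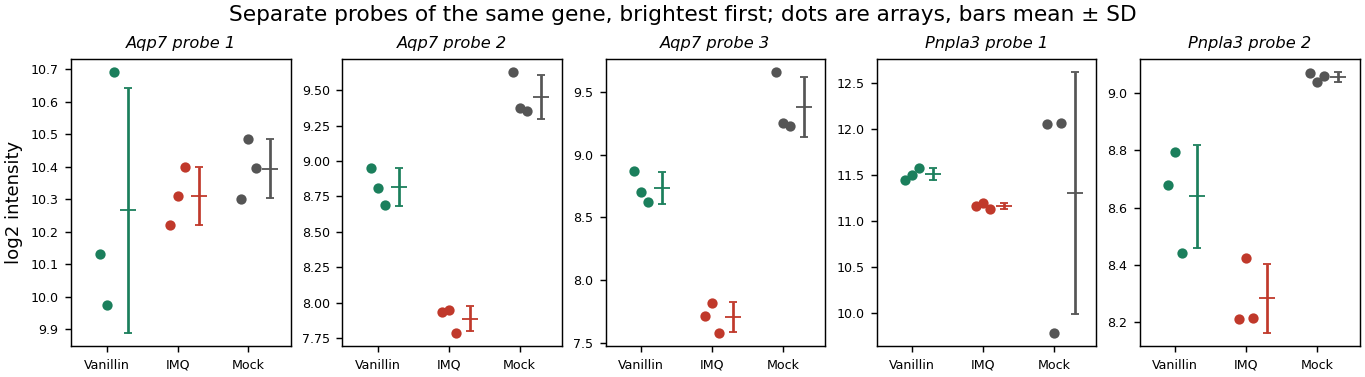
Log2 intensity (y axis) of the 3 Aqp7 probes and the 2 Pnpla3 probes on each vanillin, IMQ and mock array (dots), with mean ± SD of 3 arrays. The brightest Aqp7 probe overlaps between groups while both dimmer ones separate all 3, and mock replicate 2 lies apart on the brightest Pnpla3 probe alone.

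Of the 6 genes of triglyceride and glycerol phosphate synthesis, 4 were called lower in IMQ against mock, 1 higher and 1 was not called (29.6% of all probes lower, 24% higher). Pck1, the carboxykinase that supplies glycerol phosphate in fat cells, read 13.08, 13.21 and 13.04 on the vanillin arrays, 12.60, 12.53 and 12.51 on the IMQ arrays and 13.96, 13.33 and 13.43 on the mock arrays. The groups did not overlap and IMQ was lowest. Its difference was -1.03 ± 0.15 (SE, adjusted p = 0.000631) for IMQ against mock and 0.56 ± 0.15 (SE, adjusted p = 0.0196) for vanillin against IMQ, the second of which was lost without any one IMQ replicate or vanillin replicate 2 (adjusted p up to 0.0662). Pck1 was not called for vanillin against mock, at -0.46 (adjusted p = 0.0557), but was called lower there under 5 of 20 alternatives. Lpin1, the phosphatidate phosphatase lipin 1, read 12.24, 12.00 and 12.18 on the vanillin arrays, 11.37, 11.41 and 11.38 on the IMQ arrays and 12.48, 12.43 and 12.19 on the mock arrays. All IMQ arrays were below all others, and vanillin and mock overlapped. The difference was -0.98 ± 0.10 (SE, adjusted p = 0.000100) for IMQ against mock and 0.75 ± 0.10 (SE, adjusted p = 0.00168) for vanillin against IMQ, and -0.23 (adjusted p = 0.150) for vanillin against mock was not called. A dimmer Lpin1 probe read -0.49 (adjusted p = 0.0197) for IMQ against mock and -0.34 (adjusted p = 0.0936) for vanillin against IMQ, not called, and with the mean of both probes vanillin against IMQ was not called either (0.21, adjusted p = 0.0532). For vanillin against mock, however, the dimmer probe was called lower, at -0.83 (adjusted p = 0.00323), and so was the mean of both probes, at -0.53 (adjusted p = 0.00101), so the level of Lpin1 in vanillin skin relative to mock depended on the probe.

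Gpd1, the glycerol phosphate dehydrogenase, read 14.24, 14.35 and 14.38 on the vanillin arrays, 13.83, 13.82 and 13.81 on the IMQ arrays and 14.77, 14.56 and 14.50 on the mock arrays. The IMQ arrays were nearly equal and below both other groups. Its difference was -0.79 ± 0.09 (SE, adjusted p = 0.000182) for IMQ against mock and 0.50 ± 0.09 (SE, adjusted p = 0.00443) for vanillin against IMQ, and -0.29 (adjusted p = 0.0527) for vanillin against mock was not called. That last difference was called lower under 6 of 20 alternatives, and every vanillin array of Gpd1 lay below every mock array. Agpat2, an acyltransferase whose loss causes lipodystrophy in humans, was lower in IMQ against mock, at -0.67 (adjusted p = 0.00356), and in vanillin against mock, at -0.82 (adjusted p = 0.00278), and -0.15 (adjusted p = 0.432) for vanillin against IMQ was not called. The enzymes of the last step differed from these. Dgat2, which is also strong in skin epithelium, was higher in IMQ against mock by 0.40 (adjusted p = 0.0125), and neither -0.11 (adjusted p = 0.439) for vanillin against IMQ nor 0.29 (adjusted p = 0.0812) for vanillin against mock was called. Dgat1 read 0.07 (adjusted p = 0.549) for IMQ against mock, not called, and was higher with vanillin, by 0.43 (adjusted p = 0.00673) against IMQ and 0.50 (adjusted p = 0.00360) against mock.

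None of the 4 transcriptional regulators was called lower in IMQ skin, and limma called 2 of them higher (29.6% of all probes lower, 24% higher). Cebpa, a factor that holds fat cells in their differentiated state and also acts in keratinocytes, read 14.73, 14.57 and 14.62 on the vanillin arrays, 14.50, 14.49 and 14.45 on the IMQ arrays and 14.12, 14.03 and 13.92 on the mock arrays. The mock arrays were lowest, without overlap. Its difference was 0.46 ± 0.09 (SE, adjusted p = 0.00218) for IMQ against mock, 0.62 ± 0.09 (SE, adjusted p = 0.000945) for vanillin against mock and 0.16 (adjusted p = 0.162) for vanillin against IMQ, not called. Ppargc1a, a coactivator of mitochondrial genes in muscle and brown fat, read 7.26, 7.63 and 7.15 on the vanillin arrays, 7.54, 7.76 and 7.58 on the IMQ arrays and 6.75, 6.70 and 6.89 on the mock arrays. Its dim probe was higher on every vanillin and IMQ array than on any mock array. The difference was 0.85 ± 0.13 (SE, adjusted p = 0.000833) for IMQ against mock and -0.28 ± 0.13 (SE, adjusted p = 0.123) for vanillin against IMQ, not called. It was called higher in vanillin against mock, at 0.57 (adjusted p = 0.0136).

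Thrsp, a nuclear protein tied to fatty acid synthesis, read 13.11, 12.96 and 13.02 on the vanillin arrays, 12.40, 12.38 and 12.43 on the IMQ arrays and 12.68, 12.57 and 12.60 on the mock arrays. The vanillin arrays were highest and IMQ lowest, without overlap. It was higher with vanillin, by 0.62 ± 0.08 (SE, adjusted p = 0.00138) against IMQ and 0.41 ± 0.08 (SE, adjusted p = 0.00514) against mock. At -0.21 (adjusted p = 0.0513), IMQ against mock missed the threshold and was called under 7 of 20 alternatives. Pparg, the master regulator of fat cell formation, read 3.86, 5.41 and 5.70 on the vanillin arrays, 4.87, 5.02 and 4.87 on the IMQ arrays and 5.54, 5.02 and 4.97 on the mock arrays. These values are among the dimmest on the arrays (percentile 2.10), they overlapped between groups, and no comparison was called, with -0.26 ± 0.41 (SE, adjusted p = 0.627) for IMQ against mock, 0.07 (adjusted p = 0.903) for vanillin against IMQ and -0.19 (adjusted p = 0.780) for vanillin against mock. Without vanillin replicate 1, the array at 3.86, Pparg was called higher for vanillin against IMQ, at 0.64 (adjusted p = 0.0378). The result for Pparg on this dim probe thus depended on that array.

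Adipor2, a receptor of adiponectin with wide expression, read 15.99, 15.97 and 15.69 on the vanillin arrays, 15.29, 15.30 and 15.33 on the IMQ arrays and 15.42, 14.99 and 14.88 on the mock arrays. All vanillin arrays were above the others, and IMQ and mock overlapped. Its difference was 0.58 ± 0.15 (SE, adjusted p = 0.0146) for vanillin against IMQ, 0.79 ± 0.15 (SE, adjusted p = 0.00437) for vanillin against mock and 0.21 (adjusted p = 0.264) for IMQ against mock, not called. Without vanillin replicate 1 the first of these missed the threshold (0.52, adjusted p = 0.0503). Ucp1, the uncoupling protein of brown fat, had a dim probe that read 6.90, 6.79 and 6.72 on the vanillin arrays, 6.79, 6.82 and 6.63 on the IMQ arrays and 6.57, 6.72 and 6.60 on the mock arrays. The groups overlapped and no comparison was called, with 0.12 ± 0.09 (SE, adjusted p = 0.320) for IMQ against mock, 0.05 ± 0.09 (SE, adjusted p = 0.662) for vanillin against IMQ and 0.17 (adjusted p = 0.220) for vanillin against mock.

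Car3, a carbonic anhydrase that is abundant in fat and in slow muscle, read 16.71, 16.75 and 16.77 on the vanillin arrays, 16.28, 16.35 and 16.34 on the IMQ arrays and 17.24, 17.25 and 17.30 on the mock arrays. The 3 groups lay far apart relative to their spread. The difference was -0.94 ± 0.07 (SE, adjusted p = 2.18e-05) for IMQ against mock, 0.42 ± 0.07 (SE, adjusted p = 0.00352) for vanillin against IMQ and -0.52 ± 0.07 (SE, adjusted p = 0.000958) for vanillin against mock. Nnat (neuronatin, an imprinted gene expressed in fat and nerve) read 8.78, 8.70 and 8.51 on the vanillin arrays, 9.01, 9.03 and 9.14 on the IMQ arrays and 9.11, 9.42 and 9.54 on the mock arrays. The vanillin arrays were lowest, and IMQ and mock overlapped, with -0.29 (adjusted p = 0.0798) for IMQ against mock, not called. With vanillin it was lower, at -0.40 ± 0.13 (SE, adjusted p = 0.0334) against IMQ and -0.69 ± 0.13 (SE, adjusted p = 0.00386) against mock, the first of which was lost without any one IMQ replicate or vanillin replicate 2 or 3 (adjusted p up to 0.111). The dimmer Nnat probe was called for IMQ against mock, at -0.48 (adjusted p = 0.00478), and not for vanillin against IMQ, at 0.04 (adjusted p = 0.807).

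Members were then divided by where else they are known to be expressed, with Dgat1 and Nnat placed in no set. The sets are approximate: the one called mostly of adipocytes holds Fabp4, which macrophages and capillaries also express, and Cebpa, which also acts in keratinocytes. Of its 14 measured members, 10 were called lower, 1 higher and 3 were not called in IMQ against mock, with a median of -0.69. In vanillin against IMQ there were 8 called higher, 1 lower and 5 not called, with a median of 0.38 (24.3% of all probes higher, 17% lower). Of the 12 members also high in skeletal muscle, 5 were called lower, 4 higher and 3 were not called in IMQ against mock (median -0.18). In vanillin against IMQ 6 of these 12 were called higher, 1 lower and 5 not called (median 0.22), so the rise was not particular to the adipocyte set. Of the 7 also high in sebaceous gland or keratinocytes, 2 were called lower, 1 higher and 4 were not called in IMQ against mock (median -0.15). In vanillin against IMQ 2 of these 7 were called higher, 0 lower and 5 not called (median 0.05). Over all probes 29.6% were called lower, 24% higher and 53.6% in either direction in IMQ against mock, so 2 of 7 lower is near the background share. The median over all probes was -0.04 in IMQ against mock, with 0.03 in vanillin against IMQ.

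Other genes of the adipocyte pathway, 57 measured of 62 listed, had 24 called lower, 15 higher and 18 not called in IMQ against mock (29.6% of all probes lower, 24% higher). Their median was -0.20. The largest falls were those of Npr3, the clearance receptor of natriuretic peptides (-1.70 ± 0.17), Gpam, the acyltransferase that starts glycerolipid synthesis (-1.64 ± 0.17), Gpihbp1, which anchors lipoprotein lipase on capillaries (-1.56 ± 0.14), the lipin Lpin3 (-1.18 ± 0.11) and the transcription factor Klf15 (-1.10 ± 0.12). With vanillin against IMQ these genes read 1.09, 0.53, 0.77, 0.24 and 0.53, and all but Lpin3 (adjusted p = 0.121) were called. The largest rises in IMQ against mock were those of Zfp423, a preadipocyte factor with a dim probe (2.41 ± 0.23), the epidermal fatty acid-binding protein Fabp5 (1.44 ± 0.10), Itih4 (0.94 ± 0.16), the preadipocyte gene Dlk1 (0.87 ± 0.09) and malic enzyme Me1 (0.80 ± 0.09). With vanillin against IMQ, Zfp423 was lower at -2.79 ± 0.23, the largest change of any gene of the list in that comparison, and Itih4 (-0.56), Dlk1 (-0.75) and Me1 (-0.46) were also called lower, whereas Fabp5 was called higher still (0.33). In vanillin against IMQ there were 22 of the 57 called higher, 9 lower and 26 not called, with a median of 0.24 (24.3% of all probes higher, 17% lower).

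Of 17 measured brown and beige fat genes, 2 of them members, 4 were called lower, 3 higher and 10 were not called in IMQ against mock. Those lower were Prdm16, a factor of brown fat identity (-1.39 ± 0.12), the proton channel Otop1 (-0.97 ± 0.09), Zic1 (-0.79 ± 0.08) and the fatty acid transporter Slc27a2 (-0.32 ± 0.12). Those higher were the elongase Elovl3 (0.84 ± 0.11), which sebaceous glands also express, the thioesterase Acot11 (0.44 ± 0.15) and the cytochrome oxidase subunit Cox7a1 (0.38 ± 0.11). With vanillin against IMQ 5 were called higher and 0 lower. In IMQ against mock 41.2% of these genes were called, below the 53.6% of all probes (29.6% lower, 24% higher). For vanillin against IMQ 29.4% were called, all of them higher, near the 24.3% of all probes called higher.

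Markers of other cell types moved beside the adipocyte genes. Over all probes 29.6% were called lower and 24% higher in IMQ against mock, and 24.3% higher and 17% lower in vanillin against IMQ. For skeletal muscle, 16 of 25 listed markers were measured, none of them dim, and their summed intensity was 613896 to 635066 in vanillin, 473182 to 480004 in IMQ and 576163 to 614271 in mock skin. In IMQ against mock 9 were called lower, 1 higher and 6 were not called, and with vanillin against IMQ 13 were called higher and 3 were not called. The brightest was Acta1, skeletal actin, at -0.03 ± 0.12 in IMQ against mock and -0.17 ± 0.12 in vanillin against IMQ, neither called. Next was the troponin Tnni2, at -0.37 (adjusted p = 0.0796) for IMQ against mock, not called, and 0.59 (adjusted p = 0.0183) for vanillin against IMQ. Summed intensity of the 14 members mostly of adipocytes was 287037 to 297615 in vanillin, 258973 to 263820 in IMQ and 370033 to 390497 in mock skin. The muscle sum was higher in vanillin than in IMQ skin and overlapped with mock, while the adipocyte sum of the vanillin arrays stayed below every mock array. Such sums weigh the brightest probes most, here Cfd and Fabp4, and Fabp4 averaged 16.24 in vanillin, 16.74 in IMQ and 16.71 in mock skin. The mean log2 of the 14, which weighs genes equally, was 12.30 to 12.44 in vanillin, 12.03 to 12.08 in IMQ and 12.66 to 12.83 in mock skin.

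Endothelial markers, 15 measured, had 11 called lower, 0 higher and 4 not called in IMQ against mock (29.6% of all probes lower, 24% higher). With vanillin against IMQ they had 7 higher, 0 lower and 8 not called (24.3% of all probes higher, 17% lower). The sums of these markers were 79274 to 81780 in vanillin, 78247 to 81488 in IMQ and 99395 to 110240 in mock skin. Their mean log2 did not overlap, at 11.59 to 11.63 in vanillin, 11.34 to 11.40 in IMQ and 11.93 to 11.95 in mock skin. The brightest of them, Plvap, differed by -0.14 ± 0.10 between IMQ and mock, not called, and the next, Egfl7, was lower at -0.76 ± 0.12. Fibroblast and preadipocyte markers, 17 of 19 measured, had 13 lower, 3 higher and 1 not called in IMQ against mock, with sums of 320683 to 326326 in vanillin, 294306 to 296307 in IMQ and 406650 to 432943 in mock skin. The brightest, decorin (Dcn), was lower at -0.54 ± 0.09, as was vimentin (Vim), at -0.46 ± 0.09. Sebaceous gland markers, 18 of 19 measured with 3 of them members, had 4 lower, 7 higher and 7 not called, and macrophage markers, 17 of 18 measured, had 6 lower, 7 higher and 4 not called. Sums of the keratinocyte markers were 2157710 to 2179250 in vanillin, 1968440 to 2024110 in IMQ and 1416300 to 1541630 in mock skin. Their mean log2 overlapped between vanillin (15.77 to 15.80) and IMQ (15.76 to 15.79), with 15.09 to 15.10 in mock skin. Of these 15 markers, 7 were called higher and 3 lower in IMQ against mock. With vanillin against IMQ 2 were called higher, 1 lower and 12 not called. The part of these cell types in the levels of the adipocyte genes was not tested.

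**Figure D4:**
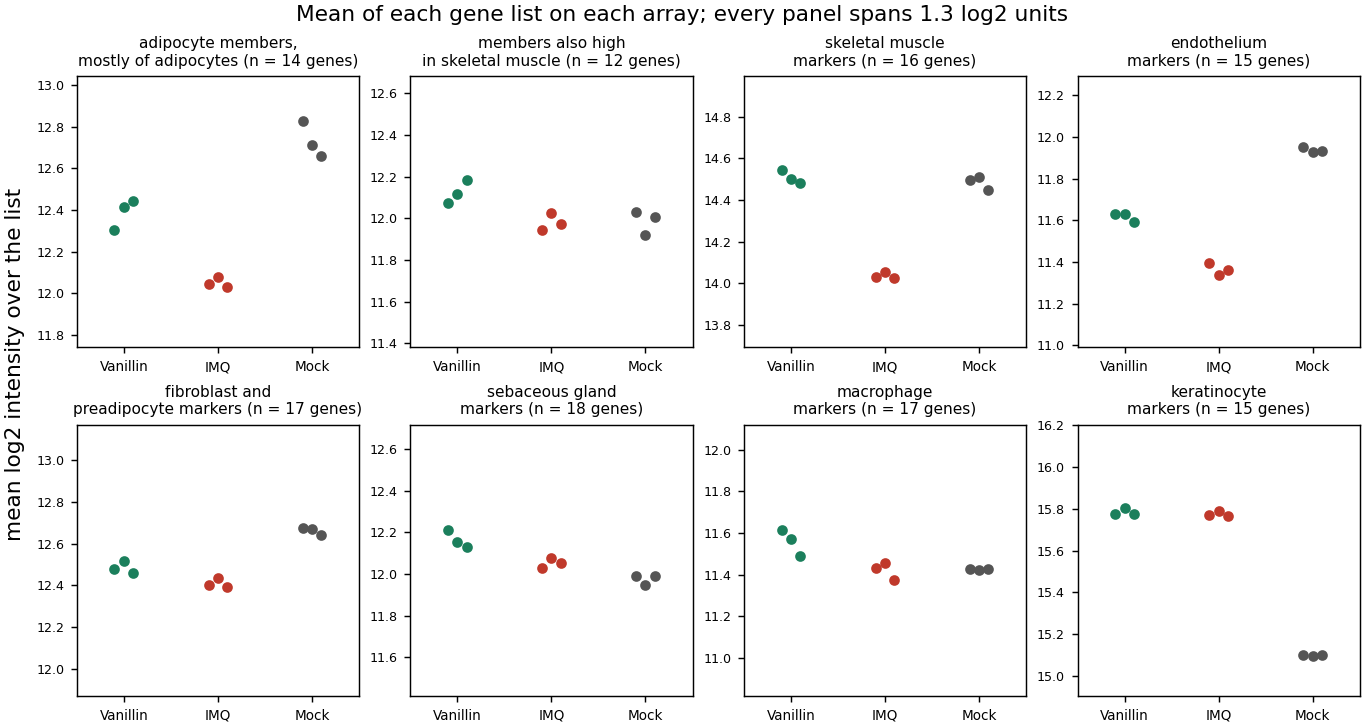
Mean log2 intensity (y axis, 1.3 units in every panel) of each gene list on every vanillin, IMQ and mock array (dots). The 14 members mostly of adipocytes run from 12.30 to 12.44 in vanillin, 12.03 to 12.08 in IMQ and 12.66 to 12.83 in mock skin, and muscle markers from 14.48 to 14.55 in vanillin, 14.02 to 14.05 in IMQ and 14.45 to 14.51 in mock skin.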

How the data were processed

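Per the labels' protocols, Cy5-labelled total RNA from 9 samples was put on one-colour arrays. The deposited table holds linear probe intensities of 26423 probes, and its 9 columns have nearly the same distribution, so a change of total signal cannot be seen. The submitters' processing notes name limma, without a version. Scanner, background correction and filter: not given in the sources used here.

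A floor of 1 was set before taking log2, and all probes were kept. With limma 3.58.1 under R 4.3.3, a model of 3 group means was fitted to every probe on the 9 arrays, spreads were moderated by empirical Bayes, and p-values were adjusted over all probes. Of 20377 probes with a symbol, 2126 had an older one that was updated through RefSeq names of GRCm38.p6, and 6046 probes were unnamed. The brightest probe stood for its gene, and other probes are given where call or direction differed. The members, lists, marker genes and tests were chosen with earlier results of these data known. Values on every array are given for Adipoq, Lep, Plin1, Ucp1, Pparg and up to 3 called members per role with the largest difference, and up to 5 called genes per direction of the other pathway lists, and the 2 brightest markers of lists that moved with the members, are named. Aqp7 and Pnpla3 were added since their probes disagreed. The procedure was tested on simulated data with the same spread in every group and few changed probes. The groups here differ in spread and many probes were called, so that test does not cover these conditions. Alternatives changed normalization, offset, dim probes, spread prior, array weights, arrays in the fit, replicate block, probes of a gene and threshold, and left out each array. The number of arrays limits the precision.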

Additional observations from a re-analysis of the deposited data

How the results depend on the processing

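Over 20 alternatives, 2088 differences of the 35 members in 3 comparisons were recomputed, and 1964 kept their call, 62 lost it, 58 gained one and 4 reversed. Quantile normalization, centring on the 75th percentile and robust empirical Bayes changed 0 of 105 each. The deposited columns already had nearly the same distribution, so both normalizations had little to change and say little about dependence on normalization. The 4 reversed values were those of Pnpla3 with array weights for IMQ against mock (0.97, adjusted p = 0.0299) and without mock replicate 2 for vanillin against mock (-0.55, in a range of -0.55 to 0.59 with 1 array left out), and, with the mean of all probes, Aqp7 for vanillin against IMQ (0.64) and Pnpla2 for vanillin against mock (0.0080). For IMQ against mock the median over the members was -0.57 with the dimmest 25% of probes left out, which leaves 31 members, -0.39 with array weights and -0.45 with the mean of all probes. For vanillin against IMQ it was 0.34 without the dimmest 25%, and the members called lower numbered 6 with array weights and 1 at an adjusted p under 0.01. For vanillin against mock they numbered 16 under array weights and 6 when the IMQ arrays were kept out of the fit. The cause was not tested. With 1 array left out, members called ran from 22 to 25 for IMQ against mock (6 to 7 higher, 16 to 18 lower, median -0.55 to -0.27), from 16 to 22 in vanillin against IMQ (15 to 18 higher, 1 to 4 lower, median 0.23 to 0.35) and from 13 to 18 in vanillin against mock (6 to 7 higher, 7 to 12 lower, median -0.26 to -0.17). Titles share replicate numbers, but same-numbered arrays had correlations of deviations from -0.265 to 0.222, and the best match had the same number in 6 of 18 cases, so the numbers are not taken to pair the samples. With the replicate block, the members called numbered 23 in IMQ against mock, 18 in vanillin against IMQ and 15 in vanillin against mock, and the calls absent there were those of Lipe (adjusted p = 0.0593) and Nnat (0.0598) for vanillin against IMQ and Cfd (0.0579) for vanillin against mock. Signal limits Pparg, Lpl, Ucp1 and Ppargc1a, whose probes were dim.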

Other observations

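Within the mock group, adipocyte genes did not vary as one. Mock replicate 1 had the highest mock value for 19 of the 35 members and the lowest for 11. It was highest for Lep (11.44), Plin1 (13.79) and Pck1 (13.96), and lowest for Angptl4 (14.83), Mgll (12.73) and Fabp4 (16.42), genes named after their values were seen. The median SD over members was 0.108 log2 units in vanillin, 0.0394 in IMQ and 0.155 in mock skin, beside 0.170, 0.0792 and 0.158 over all probes.

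Markers of skin structures around the fat layer were also measured. Over all probes 29.6% were called lower and 24% higher in IMQ against mock. Of 7 melanocyte markers 7 were called lower in IMQ against mock, of 7 Schwann cell and nerve markers 6 were called lower and 0 higher, and of 15 hair follicle markers 10 were called lower and 0 higher. With vanillin against IMQ the hair follicle markers had 4 called higher, 2 lower and 9 not called, near the shares of all probes (24.3% higher, 17% lower). Of 13 immune cell markers 6 were called higher and 2 lower in IMQ against mock, with the brightest, S100a9, at 5.54 ± 0.09.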
